A study of Mus musculus with 8 samples.

Results

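The genes described here are 8 pore subunits of voltage-gated calcium channels, chosen by symbol among the 55450 genes of the count tables: Cacna1a, Cacna1b and Cacna1e (the Cav2 subfamily), Cacna1c and Cacna1d (Cav1), and Cacna1g, Cacna1h and Cacna1i (Cav3). They were measured in nuclear RNA of cortical GABAergic neurons, which inhibit their targets, in juvenile mice. A Cre driver, not named in the labels, limited the expression of a nuclear fluorescent protein and of a mutant Thra allele to these neurons, and fluorescent nuclei were sorted from single cortices. Control mice were Thra+/+. Mutant mice were Thra+/AMI, heterozygous for an allele whose product is a thyroid hormone receptor that acts as a dominant negative. The labels give neither the age in days nor the sex of the animals. The table of mutant 10 held the same counts as that of mutant 7 in all 21975 genes with a count and a symbol of their own, with 0 genes different, which is less than sampling noise would give, and the 2 tables entered the comparison as 1 sample. The comparison is between controls 1 to 4 and mutants 6, 7 and 8.

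A voltage-gated calcium channel opens when the membrane depolarizes and lets calcium into the cell. The pore subunit, called alpha1, forms the channel and gives it its type. Alpha2delta and beta subunits carry it to the membrane and tune its gating. Cav1 channels (L-type) couple depolarization to gene transcription and to dendritic calcium entry. Cav2 channels (P/Q-, N- and R-type) supply the calcium that releases transmitter, and at many central synapses release comes to rely less on N-type and more on P/Q-type channels in early postnatal life. Release from parvalbumin basket cells is known to depend on P/Q-type channels. Cav3 channels (T-type) open at lower voltages and support rebound burst firing.

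Of the 8 members, 5 had an upstream window in the RefSeq promoter table (GRCm38.p6), with 8 windows in all. The 250 bases before the start are shown for Cacna1d and Cacna1i, which were lower in mutants, and for Cacna1b, the Cav2 gene set against Cacna1a below. These windows hold no exon base of their gene in the annotation. Capitals mark the GC box GGGCGG on either strand, where overlapping matches run together.
Cacna1d (chr14:30353487-30353736, minus strand): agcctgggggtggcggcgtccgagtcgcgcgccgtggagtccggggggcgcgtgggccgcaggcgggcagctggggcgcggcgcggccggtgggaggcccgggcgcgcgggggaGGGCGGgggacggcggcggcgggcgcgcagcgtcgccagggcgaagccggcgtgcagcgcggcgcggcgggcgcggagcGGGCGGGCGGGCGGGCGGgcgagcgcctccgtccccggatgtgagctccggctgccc
Cacna1i (chr15:80286988-80287237, plus strand): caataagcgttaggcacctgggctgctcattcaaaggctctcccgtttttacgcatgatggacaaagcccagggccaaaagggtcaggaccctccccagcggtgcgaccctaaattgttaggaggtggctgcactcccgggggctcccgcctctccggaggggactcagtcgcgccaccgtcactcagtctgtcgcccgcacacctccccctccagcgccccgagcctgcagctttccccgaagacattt
Cacna1b (chr2:24763153-24763402, minus strand): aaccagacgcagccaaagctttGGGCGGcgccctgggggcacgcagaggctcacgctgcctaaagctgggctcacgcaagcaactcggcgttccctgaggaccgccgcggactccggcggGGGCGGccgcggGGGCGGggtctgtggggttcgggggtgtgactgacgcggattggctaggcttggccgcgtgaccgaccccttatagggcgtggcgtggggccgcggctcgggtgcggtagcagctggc
The Cacna1d window, at an internal start of that gene, had 86.4% G and C bases and 5 GC boxes. The Cacna1b window had 72.0% and 3 GC boxes, and the Cacna1i window had 62.4% and 0. A GC box was present in 32.7% of all 32851 windows of this length. The TATA box TATAAA was present in 12.4% of all windows and in 0 of the 3 shown. Another Cacna1d window, not shown, had 3 matches to it, 0 GC boxes and 39.6% G and C bases. The hexamer AGGTCA, the core of binding sites for thyroid hormone receptors, occurred on either strand in 14.0% of all windows and in 0 of the 8 windows of the members. Its direct repeat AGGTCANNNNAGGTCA occurred in 5 of all windows. A missing match says only that these letters are not within these bases.

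The 7 libraries held 10747169 to 13804734 counts, and the summed counts of the 8 members were 21000 to 37658 per library. The GABAergic markers Gad1, Gad2 and Slc32a1 were present in every library, Gad1 at 520.1 to 663.8 CPM (counts scaled to library totals with TMM factors). Dlx1 was listed at 0 throughout, but it lies wholly within another annotated gene. All 13127 genes so placed were at 0 in the 7 libraries, the 4380 among them that share no exon base and lie only within genes of the opposite strand included. A count thus covers the whole span of a gene, introns included, without regard to strand, and such a 0 says nothing about expression. Levels per kb below divide by the part of the span shared with no other gene. The glutamatergic marker Slc17a7 was also present, at 46.9 to 94.5 CPM, overlapping between the groups. Thra itself was at 105.5 to 125.5 CPM in controls and at 77.6 to 96.3 CPM in mutants, a log2 fold change of -0.39 that did not pass the threshold (edgeR, adjusted p = 0.0543). These counts add both alleles. Thra did pass the threshold with DESeq2 and with limma-voom. Libraries differed by gene length: the median of genes over 100 kb, centred on each gene's mean log2 CPM, was -0.35 in control 1 and 0.36 in control 4, and between -0.06 and 0.07 in the other 5 libraries. Of the members, 6 span over 100 kb, Cacna1c the longest with 609179 bases. Cacna1g (65808 bases) and Cacna1h (59499 bases) are shorter. In bulk nuclei, fewer cells of a type and less RNA per cell cannot be told apart.

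All 8 members passed the filter on low counts and were tested. In edgeR's quasi-likelihood test over 16448 genes, Cacna1a, Cacna1d and Cacna1i were lower and Cacna1g was higher in mutants, at an adjusted p under 0.05. Those 4 of 8 called members stand beside 9.42% of all tested genes called, 4.78% lower and 4.63% higher. Among all tested genes over 100 kb the share called was 13.3%. CPM did not overlap between the groups in 6 of the 8 members, against 22.0% of all tested genes. The median log2 fold change of the 8 was 0.07, with 4 above and 4 below 0, and that of all tested genes was -0.01.

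Cacna1a encodes Cav2.1, the pore of P/Q-type channels, and lies on chromosome 8 (84388440 to 84640246, plus strand, GRCm38, with 51 merged exons). Its level was 682, 958, 933 and 1097 CPM in controls 1 to 4, and 595, 464 and 494 CPM in mutants 6, 7 and 8. Every mutant was below every control, and control 1 was the lowest control. Means were 918 ± 173 CPM (SD, n = 4) and 518 ± 68.7 CPM (SD, n = 3). Cacna1a fell to 0.564 of the control level, that is a change of -0.83 on the log2 scale (SE 0.19, 95% confidence interval -1.23 to -0.42, edgeR adjusted p = 0.0155). Other genes share 2.38% of its span. The gene was called in 7 of 7 other fits that kept all libraries or left out controls 1 and 4 together, at log2 fold changes from -0.87 to -0.82. When single libraries were left out the log2 fold change stayed between -0.94 and -0.73. It was then called in 3 of 7 fits, and adjusted p-values were 0.0556 without control 2, 0.0525 without control 3, 0.115 without mutant 7 and 0.0962 without mutant 8.

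Cacna1b encodes Cav2.2, the pore of N-type channels (chromosome 2, 24603887 to 24763152, minus strand). Controls were at 235, 332.5, 333 and 334 CPM, and mutants at 406, 389 and 332 CPM. The groups overlapped, since mutant 8 was at the level of controls 2, 3 and 4, and control 1 lay apart below them. The log2 fold change was 0.28 (SE 0.15, 95% confidence interval -0.05 to 0.62), and the gene was not called (edgeR adjusted p = 0.313).

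Cacna1e encodes Cav2.3, the pore of R-type channels (chromosome 1, 154390731 to 154884501, minus strand). Controls were at 178, 242, 230.4 and 283 CPM, and mutants at 357, 293 and 349 CPM. All 3 mutants were above all 4 controls, with mutant 7 just over control 4. The log2 fold change of 0.51 (SE 0.16, 95% confidence interval 0.17 to 0.85) did not pass the threshold (edgeR adjusted p = 0.0622). It passed in 6 of the 7 other fits, with adjusted p = 0.00234 when the trend with genomic length was taken out by an offset per library, and adjusted p = 0.000753 without controls 1 and 4. Without single libraries it was called in 2 of 7 fits, those without control 1 (log2 fold change 0.41) or control 4 (0.62).

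Within each library the Cav2 genes could be set against each other per kb of unshared span, a ratio of levels in which library size cancels. The ratio of Cacna1a to Cacna1b was 1.87, 1.86, 1.81 and 2.12 in the controls. In mutants 6, 7 and 8 it was 0.946, 0.77 and 0.96. The ratio of Cacna1a to Cacna1e was 7.69 to 8.13 in controls and 2.84 to 3.35 in mutants. In both ratios the groups were far apart compared with the spread inside each group. Control 1, the lowest control for all 3 genes in CPM, had ratios close to those of the other controls. No test was made of these ratios.

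Of the Cav1 genes, Cacna1d encodes Cav1.3, an L-type channel that opens at lower voltages than Cav1.2 (chromosome 14, 30039939 to 30491455, minus strand). Its level was 338, 458, 432 and 552 CPM in controls and 323, 254 and 281 CPM in mutants. Every mutant was below every control, mutant 6 by a small margin under control 1. Means were 445 ± 88.1 CPM (SD, n = 4) and 286 ± 34.8 CPM (SD, n = 3). Cacna1d fell by 0.64 on the log2 scale (SE 0.17, 95% confidence interval -1.01 to -0.26, edgeR adjusted p = 0.0367), to 0.643 of the control level. Other genes share 3.45% of its span. It was called in 7 of 7 other fits. With single libraries left out the log2 fold change ranged from -0.74 to -0.52, and the gene was called in 2 of 7 fits, those without control 1 or control 4. Adjusted p was 0.101 without control 2, 0.0876 without control 3, 0.0776 without mutant 6, 0.201 without mutant 7 and 0.153 without mutant 8.

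Cacna1c encodes Cav1.2, the main L-type channel of the forebrain (chromosome 6, 118587240 to 119196418, minus strand). Controls were spread from 246 CPM in control 1 over 391 and 378 to 636 CPM in control 4, and mutants were at 411, 352 and 363 CPM, inside that range. The log2 fold change was -0.14 (SE 0.25, 95% confidence interval -0.67 to 0.40, edgeR adjusted p = 0.816), and it was 0.15 without control 4. With the offset for genomic length it was -0.09, and its SE shrank to 0.09. The ratio of Cacna1d to Cacna1c per kb was 1.17 to 1.85 in controls and 0.969 to 1.06 in mutants, with no overlap.

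**Figure D1:**
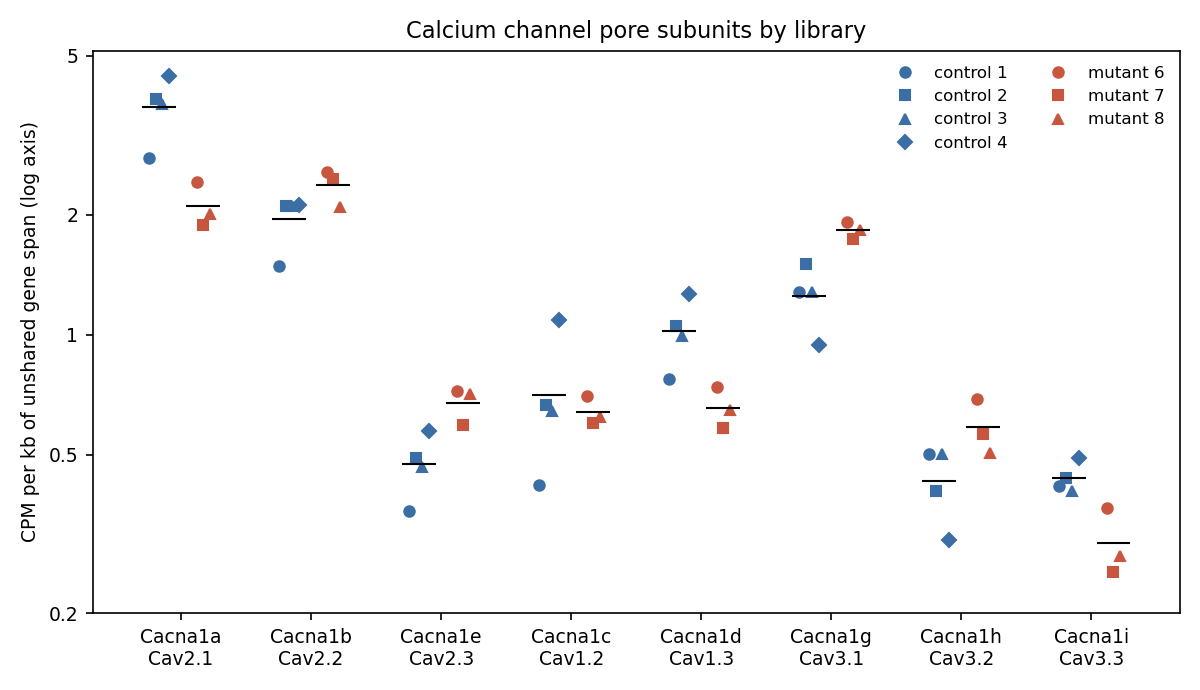
Level of each pore subunit in CPM per kb of gene span shared with no other gene (log axis) for controls 1 to 4 (blue) and mutants 6, 7 and 8 (red); points are libraries and black lines are group means. Cacna1a, Cacna1d and Cacna1i lie lower and Cacna1e, Cacna1g and Cacna1h higher in all 3 mutants than in all 4 controls, while Cacna1b and Cacna1c overlap.

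The T-type genes went in different directions. Cacna1g encodes Cav3.1 (chromosome 11, 94408391 to 94474198, minus strand). Its level was 84.2, 99.1, 84.3 and 61.9 CPM in controls and 126, 114 and 120.4 CPM in mutants. All mutants were above all controls, and control 4 was the lowest. Cacna1g rose 1.46-fold, by 0.55 on the log2 scale (SE 0.14, 95% confidence interval 0.24 to 0.85, edgeR adjusted p = 0.0299). It was called in 7 of 7 other fits, with log2 fold changes from 0.39 without controls 1 and 4 to 0.59. Leaving out control 3 (adjusted p = 0.0742), mutant 6 (0.13), mutant 7 (0.0872) or mutant 8 (0.108) ended the call, while the log2 fold change lay between 0.51 and 0.59. The gene lies 4.27 Mb from Thra on the same chromosome, and whether DNA linked to the mutant allele plays a part was not tested.

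Cacna1h encodes Cav3.2 (chromosome 17, 25374285 to 25433783, minus strand) and was low. Controls were at 29.7, 24.0, 29.7 and 18.1 CPM and mutants at 40.8, 33.5 and 29.9 CPM, on 225 to 522 reads per library. The groups did not overlap, but mutant 8 was only just above controls 1 and 3. The log2 fold change of 0.45 (SE 0.18, 95% confidence interval 0.06 to 0.84) was not called (edgeR adjusted p = 0.154). A model with a term for the libraries with under 100 Y-linked reads, control 4 (4 reads) and mutant 8 (3 reads), gave 0.50 with adjusted p = 0.0403. That was the only 1 of the 7 other fits to call Cacna1h. Without single libraries it was called in 0 of 7 fits (edgeR adjusted p from 0.0647 to 0.481).

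Cacna1i encodes Cav3.3, the T-type channel with the slowest kinetics (chromosome 15, 80287238 to 80398279, plus strand). Its level was 46.4, 48.4, 44.9 and 54.4 CPM in controls and 40.8, 28.1 and 31.0 CPM in mutants, on 306 to 674 reads. Every mutant was lower than every control, and mutant 6 was nearest to them. Means were 48.5 ± 4.15 CPM (SD, n = 4) and 33.3 ± 6.69 CPM (SD, n = 3). Cacna1i fell by 0.54 on the log2 scale (SE 0.14, 95% confidence interval -0.85 to -0.23, edgeR adjusted p = 0.0334), to 0.687 of the control level. It was called in 7 of 7 other fits. The call was lost without control 2 (adjusted p = 0.0836), control 3 (0.0642), mutant 7 (0.186) or mutant 8 (0.163), while the log2 fold change lay between -0.57 and -0.43. The ratio of Cacna1g to Cacna1i per kb was 1.92 to 3.45 in controls and 5.22 to 6.85 in mutants.

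**Figure D2:**
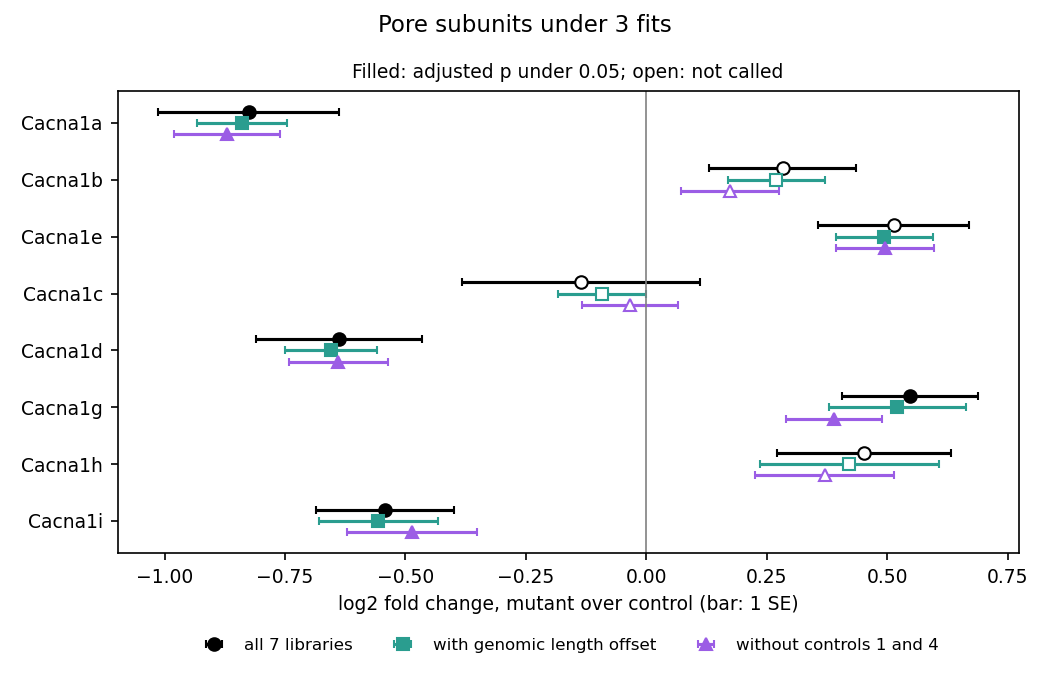
Log2 fold change of mutant over control for each pore subunit, with 1 SE, from the fit to 7 libraries, the fit with an offset for genomic length and the fit without controls 1 and 4; filled symbols have an adjusted p under 0.05. Cacna1a, Cacna1d, Cacna1g and Cacna1i are filled in all 3 fits, Cacna1e in the second and the third, and Cacna1b, Cacna1c and Cacna1h in none.

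Per kb of unshared span, Cacna1a was the most abundant member in all 4 controls, at 2.77 to 4.46 CPM per kb. The order of control means then ran Cacna1b (1.95), Cacna1g (1.25), Cacna1d (1.02), Cacna1c (0.704), Cacna1e (0.473), Cacna1i (0.437) and Cacna1h (0.428). In mutants the means were 2.37 for Cacna1b, 2.11 for Cacna1a, 1.83 for Cacna1g, 0.675 for Cacna1e, 0.656 for Cacna1d, 0.64 for Cacna1c, 0.585 for Cacna1h and 0.3 for Cacna1i. Cacna1a was above Cacna1b in 4 of 4 controls and in 0 of 3 mutants, where their ranges overlapped. In controls the ranges of all neighbours below Cacna1a in this order overlapped. In mutants those of Cacna1a and Cacna1g overlapped, as did those of neighbours from Cacna1e down to Cacna1h, while Cacna1h and Cacna1i were separate. These levels add exon and intron reads, so the order between genes also depends on the length used. Per kb of merged exons, Cacna1a ranked first in every library and Cacna1d second in every control.

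As a share of the summed level per kb of all 8 genes, Cacna1a took 34.6% to 39.7% in controls and 21.8% to 23.9% in mutants. Cacna1b took 18.5% to 20.6% in controls and 24.1% to 28.3% in mutants, and Cacna1e 4.51% to 5.10% and 7.14%, 6.86% and 8.15%. Added up, Cav2 genes held 61.3% ± 2.59 (SD, n = 4) in controls and 56.2% ± 0.776 (SD, n = 3) in mutants. Cav3 genes held 21.6% ± 4.91 (SD, n = 4) in controls and 29.6% ± 0.364 (SD, n = 3) in mutants, with 27.4% in control 1 as the nearest control. Within Cav3, Cacna1g took 8.37% to 15.96% in controls and 18.98% to 21.05% in mutants. The share of Cacna1i was smaller in mutants, at 3.97% to 5.22% in controls and 2.92% to 3.63% in mutants, and that of Cacna1h overlapped. Cav1 genes held 14.9% to 20.9% in controls and 13.7% to 14.6% in mutants, a narrow gap. The shares are tied to each other, so a fall in 1 gene raises the shares of the rest.

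**Figure D3:**
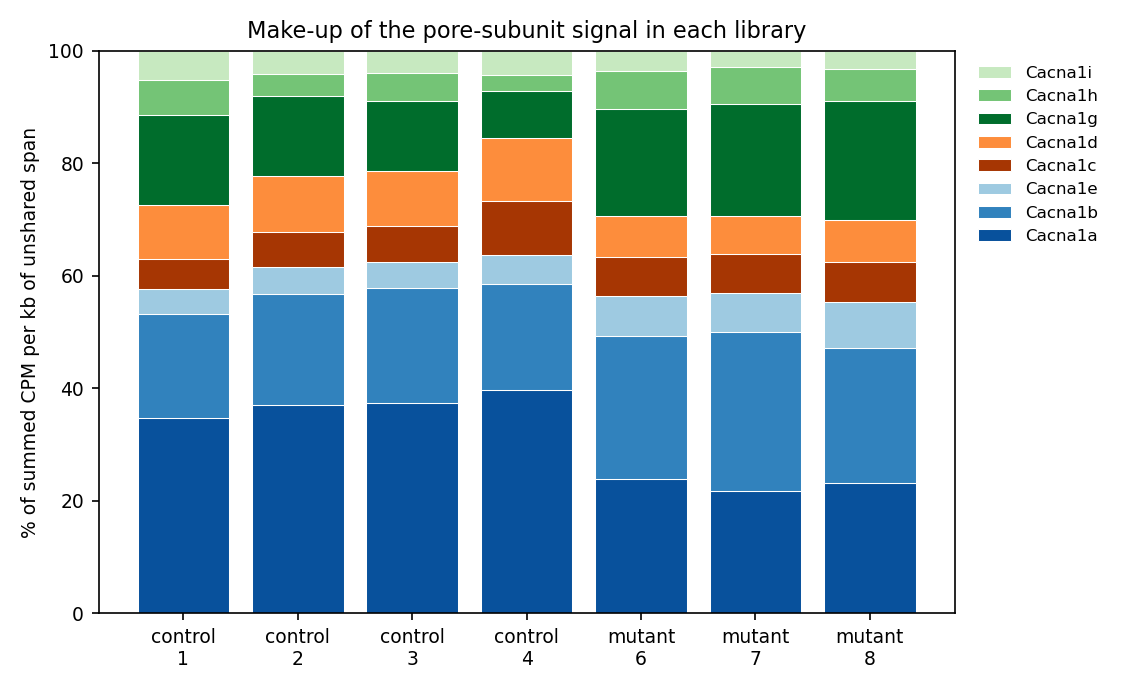
Share of each gene in the summed CPM per kb of unshared span of the 8 pore subunits, in percent, as stacked bars for the 7 libraries. The Cacna1a segment ends at 34.6% to 39.7% in the 4 controls and at 21.8% to 23.9% in the 3 mutants. The Cacna1b, Cacna1e and Cacna1g segments are larger in the mutants.

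The other pore subunits of the family were nearly absent. Cacna1f (Cav1.4, a retinal channel) was at 2.22 to 5.97 CPM and did not pass (log2 fold change -0.32, edgeR adjusted p = 0.651). Cacna1s (Cav1.1, of skeletal muscle) had 1 to 21 reads per library and was not tested.

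Among the auxiliary subunits, most genes were not called. Over all tested genes 9.42% were called, 4.63% higher and 4.78% lower. Of 5 alpha2delta genes, which promote the surface expression of Cav1 and Cav2 channels, Cacna2d2 was lower. It was at 185, 206, 228 and 219 CPM in controls and 161, 137 and 155 CPM in mutants, with no overlap. The change was -0.47 on the log2 scale (SE 0.12), with an edgeR adjusted p of 0.0249. The other 4 ran from -0.0030 for Cacna2d3, the most counted of them, to 0.28. None of the 4 beta genes (Cacnb1, Cacnb2, Cacnb3, Cacnb4), cytoplasmic partners of Cav1 and Cav2 pores, was called. Their log2 fold changes ran from -0.14 to 0.16, and 0 had an unadjusted p under 0.05 in edgeR. DESeq2 and limma-voom called 0 of the 4 as well, with 0 and 1 at an unadjusted p under 0.05. Of 7 tested gamma genes, known mainly as partners of AMPA receptors, Cacng4 (0.78) and Cacng5 (0.53) were higher. Both lie on chromosome 11, 8.96 and 9.11 Mb from Thra. Cacng2 (-0.72) and Cacng7 (-0.74) had adjusted p-values of 0.0698 and 0.0587.

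Of the 20 tested scaffolds and modulators, 3 rose and 2 fell, where 4.63% of all tested genes were higher and 4.78% lower. Stac2, an adaptor that binds L-type channels and slows their inactivation, fell from 106 ± 4.00 CPM (SD, n = 4) to 43.1 ± 4.42 CPM (SD, n = 3), a change of -1.29 on the log2 scale (SE 0.11) with an edgeR adjusted p of 2.65e-05. Controls were at 99.8 to 109 CPM and mutants at 39.2 to 47.9 CPM. Stac3 (0.62, edgeR adjusted p = 0.0656) and Stac (0.47, edgeR adjusted p = 0.305) went the other way and were not called. Stac2 lies 0.687 Mb from Thra, and the part of linked DNA was not tested. Cacnb1 (0.10) and Neurod2 (0.13), at 0.718 and 0.411 Mb from Thra, were not called. Rem2 and Rrad encode small GTPases that inhibit Cav1 and Cav2 channels, and both rose. Gem, of the same family, was not called (-0.13, edgeR adjusted p = 0.873), and Rem1, with 0 to 10 reads per library, was not tested. Rem2 was at 9.04, 8.69, 8.83 and 4.11 CPM in controls and 17.8, 16.7 and 23.1 CPM in mutants (log2 fold change 1.32, SE 0.25, edgeR adjusted p = 0.00511). Rrad had only 3 to 6 reads per control and 21 to 27 per mutant, and 15.2% of its span lies inside another gene. Rims3 (0.52) was higher and Rims4 (-0.53) was lower. They encode short RIM proteins, which bind channels at the presynaptic active zone. The longer Rims1 (-0.18) and Rims2 (-0.11), and Rimbp2 (-0.15), were not called.

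A further list holds genes that handle calcium after its entry. Of its 15 tested genes of stores and extrusion, 4 fell and 1 rose, beside 9.42% of all tested genes called, and the median log2 fold change was -0.29 against -0.01 over all tested genes. Ryr1, a release channel of the endoplasmic reticulum, was at 43.1, 43.8, 45.9 and 44.3 CPM in controls and 13.1, 17.8 and 11.9 CPM in mutants. Its log2 fold change was -1.64 (SE 0.15, edgeR adjusted p = 5.43e-05), with 8.94% of its span inside other genes. Itpr1, the IP3-gated release channel, was at 298, 356, 317 and 383 CPM in controls and 169, 136 and 147 CPM in mutants (log2 fold change -1.17, SE 0.14, edgeR adjusted p = 0.000259). In both release channels every mutant was under the lowest control by a wide margin. Atp2a2 (-0.49), the pump that refills the store, and Atp2b2 (-0.63), a calcium pump of the plasma membrane, were also lower. Another plasma membrane pump, Atp2b4, was higher (1.08, edgeR adjusted p = 0.000195), at 21.2 to 26.1 CPM in controls and 45.6 to 53.6 CPM in mutants. Of 6 tested genes of calcium-activated potassium channels, Kcnn3, which encodes an SK channel, rose (1.09, edgeR adjusted p = 0.00231), and the BK channel gene Kcnma1 (-0.11) was not called.

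**Figure D4:**
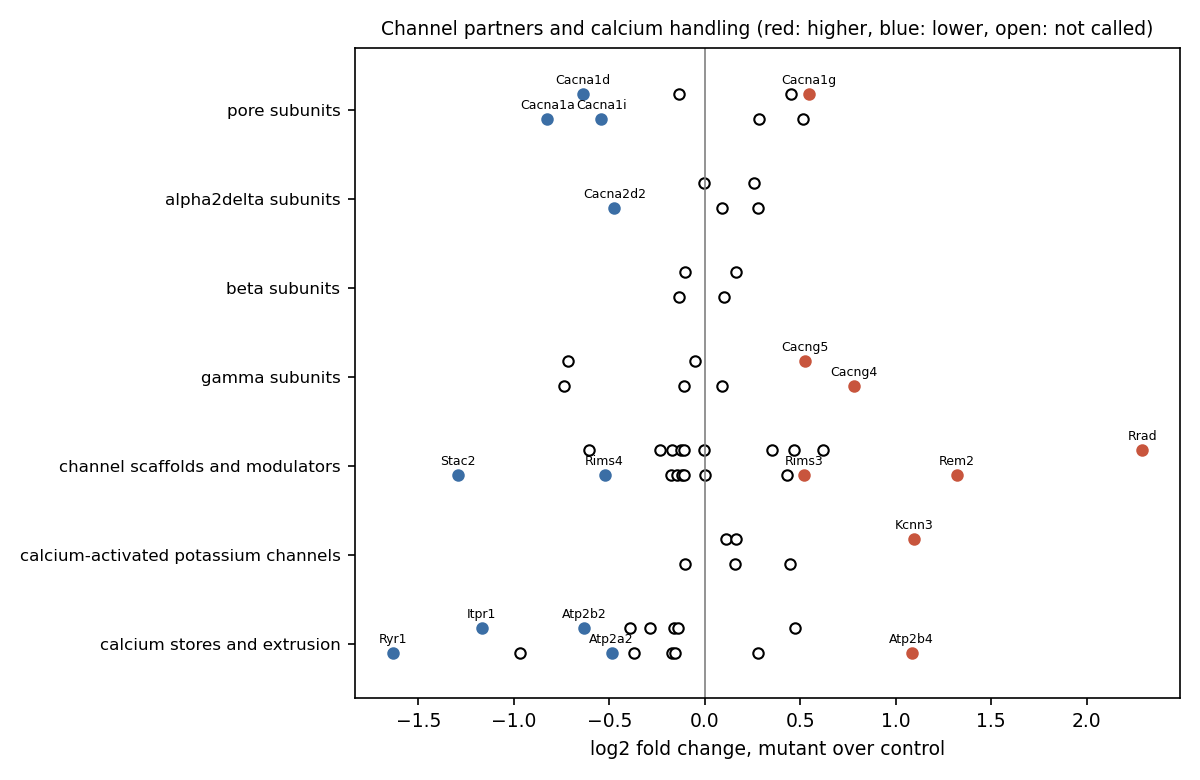
Log2 fold change of mutant over control for the tested genes of each list, 1 point per gene, with called genes filled (red higher, blue lower) and named. The beta subunits lie within -0.14 to 0.16, while Ryr1 (-1.64), Stac2 (-1.29) and Itpr1 (-1.17) are the lowest called genes and Rrad (2.29) the highest.

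Across the 6 partner lists, 57 of 61 genes were tested, 7 were higher and 7 lower, and 24 had an unadjusted p under 0.05. Of all 16448 tested genes 9.42% were called, and 3709 had an unadjusted p under 0.05 (edgeR). All 14 were called in the 7 other fits. Of them 8 kept the call in each fit without 1 library: Stac2, Ryr1, Itpr1, Atp2b4, Kcnn3, Rem2, Rrad and Cacng4. Rims3 lost it without mutant 7. Cacna2d2, Atp2a2 and Atp2b2 lost it in the fits that left out control 2, control 3, mutant 6, mutant 7 or mutant 8, Cacng5 without control 2, control 3, mutant 7 or mutant 8, and Rims4 without control 3 or any single mutant.

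Calcium entry through L-type channels induces immediate early genes, which were read from the same fit. Of 6 tested, Npas4 (1.11), Fos (0.83) and Nr4a1 (0.58) were higher in mutants, and the other 3 were at 0.13 to 0.41. Over all tested genes, 4.63% were called higher. Whether calcium entry plays a part was not tested. Fos overlapped little between the groups, with 11.9 to 15.1 CPM in controls and 14.9, 27.4 and 29.8 CPM in mutants, the lowest of them mutant 8. Npas4 lost its call without mutant 6 or mutant 7. Fos lost it without control 2, control 3, mutant 6 or mutant 7, and Nr4a1 in the same fits and without mutant 8.

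Markers of neuron classes moved with the same contrast. Of the parvalbumin neuron markers, Pvalb (-4.48), Syt2 (-2.18) and Kcnc1 (-1.40) were lower, Kcnc2 (0.32) and Tac1 (-0.0044) were not called, and Cox6a2, which like Dlx1 lies wholly within another gene, had no count in any library. The summed level of the list was 1778 to 2813 CPM in controls and 1988 to 2246 CPM in mutants. Most of that sum was Kcnc2, at 1093 to 1961 CPM in controls and 1697 to 1901 CPM in mutants. The sum therefore says little about the other markers of the list. Of the 5 somatostatin neuron markers, Sst (0.84) and Crhbp (1.03) were higher, and the summed level was 773 to 928 CPM in controls and 1195 to 1453 CPM in mutants. Their part in the changes of the channel genes was not tested. Of the 35 tested markers of glutamatergic neurons, glia, endothelial cells and striatal projection neurons, 2 were higher (Mog, 0.93, and Rgs9, 0.81) and 1 lower (Slc4a4, -0.54), beside 9.42% of all tested genes called. Of the 9 glutamatergic markers, 0 were called by edgeR, DESeq2 or limma-voom, with 0, 0 and 1 at an unadjusted p under 0.05. The summed glutamatergic level was 245 to 346 CPM in controls and 224 to 281 CPM in mutants.

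For each called member, the 3 genes with the nearest profile over the 7 libraries were taken from the 11789 genes averaging 5 CPM or more. Nearness is the root mean square difference between log2 CPM profiles, each centred on its own mean. For Cacna1a, whose own profile varied by 0.456 about its mean, they were Ank1 (0.0875), Brinp2 (0.0951) and A530058N18Rik (0.0995). For Cacna1d (0.374) they were Bckdhb (0.0576), A330102I10Rik (0.0674) and Myrip (0.0684). For Cacna1i (0.323) they were Tbc1d2b (0.0520), 4930432K21Rik (0.0864) and Impa2 (0.0913). For Cacna1g (0.338) they were Tmem198b (0.0741), Zfp575 (0.0862) and Klhdc8b (0.0887). A near profile follows the genotype as well as the differences between control libraries, and Bckdhb, 4930432K21Rik, Impa2 and Tmem198b were not called themselves.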

How the data were processed

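Per the labels' protocols, nuclei from single frozen cortices were sorted, and cDNA was made with a SMART-Seq kit and sequenced in pairs after a Nextera XT library step. Amplified cDNA carries no molecular identifiers, so p-values and intervals rest on the spread between libraries. Per the submitters' processing notes, Bowtie2 2.5.3 and GRCm38 (mm10) were used. The counting program, its settings, strand use and annotation are not given in the sources used here. In the deposited counts 0 of 13127 genes lying wholly within other genes had a count, so counts cover gene spans, introns included, on either strand. The deposited values are raw counts per gene, 1 library per table. All 55450 identifiers of the 7 tables keyed by identifier matched GENCODE M21, which gave symbols, coordinates and lengths.

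Counts were fitted in R 4.3.3 with edgeR 4.0.16: filterByExpr (least count 10, least total 15), TMM, robust quasi-likelihood with group as the only term, two-sided, Benjamini-Hochberg over all 16448 tested genes, called under 0.05. SE is the absolute log2 fold change over the square root of F. CPM per kb divides by the span shared with no other gene. Merged exon length had been planned and was replaced after the counts were seen. Alternatives used DESeq2 1.42.0, limma 3.58.1 (voom with sample weights), RLE scaling, no filter, a genomic length offset (loess, span 0.5), a term for libraries with under 100 Y-linked reads, and fits without single libraries or without controls 1 and 4. On simulated data for this comparison (16174 genes in the step), edgeR recovered 67 of 100 genes changed by 1 and 92 of 100 changed by 2 on the log2 scale, with 15 false calls. With no changed gene it made 0 calls. The simulated counts held no trend with gene length, and their changed genes moved by more than any called member. These rates therefore do not describe calls of the members.

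Depth was 10747169 to 13804734 counts per library, so 1 CPM is at least 10.7 reads. Each library is a separate cortex per the labels. The members and gene lists were chosen with earlier results of these data known. Named genes are the 8 members, every called gene of the partner and immediate early lists, Thra, and the 3 nearest profiles of each called member. Other genes were named after their values were seen.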

Additional observations from a re-analysis of the deposited data

Results flagged for a closer look

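For each of the 8 members, the CPM of the 4 controls were searched for a library far from the rest. Mutants were too few for this. In 1 of the 8, Cacna1b, the gap between control 1 (235 CPM) and the nearest other control (332.5 CPM) made up 0.98 of the range of the controls, above Dixon's 95% critical value for 4 samples. About 1 in 20 such groups is flagged by chance. Genes over 100 kb were lower in control 1 than in the other libraries, with a centred median of -0.35, and Cacna1b spans 159266 bases. Its log2 fold change was 0.18 without control 1 and 0.27 with the offset for genomic length, and the gene was called in neither fit (edgeR adjusted p = 0.403 and 0.0789).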

How the results depend on the processing

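The 4 called members kept their direction and their call with DESeq2, limma-voom, RLE scaling, no low-count filter, the genomic length offset, the term for Y-linked reads and without controls 1 and 4, where 4 to 6 members were called. Without 1 library, 0 to 5 members were called, with 0 without control 3, mutant 7 or mutant 8 (edgeR, 6, 5 and 6 at an unadjusted p under 0.05), 1 without control 2 and 2 without mutant 6. Of all tested genes, 3177 of 16261 were at an unadjusted p under 0.05 without control 3 (edgeR). Without mutant 7 they were 2787 of 16876, and without mutant 8 they were 2966 of 16794. Without control 1 or without control 4, 5 members were called, as without both. Across the fits without 1 library, log2 fold changes stayed at -0.94 to -0.73 for Cacna1a and -0.74 to -0.52 for Cacna1d. They stayed at -0.72 to -0.43 for Cacna1i and 0.43 to 0.65 for Cacna1g. Among 112 values of single members under an alternative, 1 changed sign: Cacna1c, -0.31 to 0.15 without single libraries, the last without control 4. Partner genes called numbered 14, against 22 with DESeq2, 24 with limma-voom, 23 with the length offset, 24 without controls 1 and 4, and 9 to 22 without single libraries. All called genes numbered 1549, against 3147 with limma-voom, 2747 with the length offset, 2778 without controls 1 and 4, and 734 to 2347 without single libraries. The cause of these differences was not tested. No paired analysis was possible because the groups share no replicate number. With merged exon length in place of unshared span, set beside it after the data were seen, the mean Cacna1a share was 42.0% in controls (37.1% with span) and 29.1% in mutants (22.9%), and Cacna1a was first in every library. Depth limits genes of few reads, such as Rrad with 3 to 27 per library.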
